A study of Rattus rattus with 18 samples.

Results

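The chemokine genes *Cxcl12* (ENSRNOG00000013589), *Cxcl16* (ENSRNOG00000026647) and *Ccl19* (ENSRNOG00000015668) were followed in RNA-seq libraries of the rat hypothalamic arcuate nucleus (ARC). They were taken by their gene identifiers, and they are 3 of the 32883 genes counted. The study asked how running changes gene expression in the ARC of diet-induced obese (DIO) rats, and whether the microRNA miR-211 bears on feeding and inflammation there. All animals were female Wistar rats, and each library came from ARC tissue punched out of brain sections.

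In the DIO/running experiment, 3 chow sedentary (CS), 3 high-fat sedentary (HFS) and 4 high-fat running (HFR) libraries were analysed. The rats were on chow or a diet with 60% fat from postnatal day 21, and from day 90 they lived singly for 4 weeks in cages without or, for HFR, with a running wheel. In the miR-211 experiment, 4 rats were infused with the MiRIDIAN hsa-miR-211 mimic and 4 with the MiRIDIAN hsa-miR-211 hairpin inhibitor. These rats ate chow, arrived on postnatal day 60, carried a cannula to the third ventricle, were fasted overnight and were killed 6 h after the infusion. The cannula and the infusion were common to both arms. Rats that ran on chow and rats given the negative control were not analysed here, so mimic and inhibitor were compared with each other and not with an untreated ARC. The labels number the libraries within a group, and the study describes 1 library per rat. The DIO experiment was run more than once, and which run a library belongs to is not in the labels.

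Chemokines are small secreted proteins that steer leukocytes and other cells through G-protein-coupled receptors. *Cxcl12* is the prototype of a homeostatic chemokine: it is made constitutively by vascular, meningeal and neural cells, and its receptor Cxcr4 guides cell migration and modulates neurons. *Cxcl16* is made as a membrane protein that also scavenges oxidized lipoprotein, is shed by Adam10 and Adam17 to attract cells bearing Cxcr6, and is induced by inflammatory cytokines. *Ccl19* binds Ccr7 and draws dendritic cells and T cells into lymphoid tissue, where stromal cells make it constitutively, but it is also induced in inflamed tissue, including brain, so its place among inflammatory chemokines is not strict.

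Each CS library held 4680736 to 5634204 counts on genes, each HFS library 5769107 to 6373077 and each HFR library 4753472 to 7494207, with 1275263 to 3318751 in mimic and 1559206 to 6615927 in inhibitor. Levels are given as CPM, the counts of a gene relative to the size of its library, scaled by TMM factors within each experiment. The arcuate nucleus was recognisable from *Pomc*, the precursor of melanocortin peptides, at 171 to 1067 CPM in the DIO libraries and 52.9 to 1034 CPM in the miR-211 libraries. Of 13 arcuate neuron markers, 6 could be matched to an identifier, and their summed level was 940 to 1794 CPM and 1032 to 1922 CPM in the 2 experiments. *Pomc* was low in CS replicate 3 (171 CPM), HFR replicate 1 (182 CPM) and mimic replicate 3 (52.9 CPM) against the other libraries of their groups. CS replicate 2 and HFS replicate 2 corresponded to no animal in the study's own table of values, whereas the other 8 DIO libraries each did, and values without this pair are given beside some of the results.

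*Cxcl12* was at 26.8, 30.5 and 38.0 CPM in the 3 CS libraries. In HFS it was at 21.4, 25.9 and 23.9 CPM, and in HFR at 28.9, 26.2, 24.7 and 26.6 CPM. The 3 CS libraries lay above all 3 HFS libraries, while HFR overlapped both groups. The CS mean was 31.7 ± 5.72 CPM (SD, n = 3), the HFR mean 26.6 ± 1.74 CPM (SD, n = 4) and the HFS mean 23.7 ± 2.27 CPM (SD, n = 3).

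None of the 3 chemokines passed the threshold in HFS against CS, where edgeR called 0.00841% of 11892 genes at an adjusted p under 0.1. The fitted log2 fold change of *Cxcl12* in HFS over CS was −0.42 ± 0.19 (SE), a level 1.34-fold higher in CS, with an edgeR adjusted p of 0.994. It was the only 1 of the 3 whose HFS and CS libraries did not overlap, as was the case for 9.72% of all genes tested, and an exact two-sided permutation test gave p = 0.10, the smallest that 3 against 3 allows. In HFR over CS the log2 fold change was −0.25 ± 0.18 (SE), with an edgeR adjusted p of 0.995. HFR exceeded HFS by 0.17 ± 0.18 (SE) on the log2 scale, less than its error. With both high-fat groups set against CS, the mean of *Cxcl12* over their 7 libraries was 25.4 ± 2.37 CPM (SD, n = 7). That log2 fold change was −0.34 ± 0.16 (SE), with an edgeR adjusted p of 0.998. An exact two-sided permutation test of *Cxcl12* alone, which was not planned and is unadjusted, gave p = 0.0333, where 0.0167 is the smallest possible. The same permutation test gave p = 0.867 for *Cxcl16* and 0.95 for *Ccl19*. Without CS replicate 3 the log2 fold change of *Cxcl12* was −0.27 in HFS over CS, −0.10 in HFR over CS and −0.19 in the high-fat groups over CS. The exact permutation p of *Cxcl12* in the high-fat groups over CS was 0.111 without either CS replicate 2 or CS replicate 3. Without CS replicate 1 it was 0.0556 (exact permutation p). The group means thus ran from CS through HFR to HFS, and none of these steps passed the threshold.

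*Cxcl16* was at 13.8, 28.0 and 11.6 CPM in CS. Its HFS libraries stood at 34.3, 20.5 and 28.3 CPM, and its HFR libraries at 6.38, 13.1, 12.8 and 22.8 CPM. Here HFS was the highest group and HFR the lowest, but CS replicate 2 and HFR replicate 4 reached into the HFS range, so that all 3 groups overlapped. The HFS mean was 27.7 ± 6.94 CPM (SD, n = 3), that of CS 17.8 ± 8.88 (SD, n = 3) and that of HFR 13.8 ± 6.79 (SD, n = 4).

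With no library left out, the widest *Cxcl16* difference was between the high-fat groups. The log2 fold change was −0.99 ± 0.38 (SE) in HFR over HFS, a level 1.99-fold higher in HFS. Its 95% interval was −1.82 to −0.16, but over all genes the edgeR adjusted p was 0.989, and an exact two-sided permutation test gave p = 0.114. In this comparison edgeR called 0 of 11892 genes (0%), as did DESeq2, with 504 genes at an unadjusted p under 0.05, and the libraries of 6.84% of genes did not overlap, none of the 3 chemokines among them. HFS over CS gave 0.63 ± 0.41 (SE) and HFR over CS −0.36 ± 0.39 (SE), with edgeR adjusted p values of 0.994 and 0.995. In HFR against CS edgeR called 0.0168% of genes and 5.47% did not overlap, again with none of the 3 chemokines. Leaving out CS replicate 2 took HFS over CS to 1.12 and turned HFR over CS to 0.14, with HFR over HFS at −0.98. Without CS replicate 2 and HFS replicate 2, HFS over CS was 1.30 and HFR over HFS −1.17. In the other direction, HFS over CS was 0.40 without CS replicate 3, 0.45 without HFS replicate 1 and 0.47 without CS replicate 1. None of these passed the threshold.

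*Ccl19* was at 3.55, 19.6 and 7.94 CPM in CS, from 19, 110 and 37 counts. In HFS it was at 15.7, 17.0 and 16.0 CPM, the tightest of the 3 groups. In HFR it was at 0.997, 4.61, 2.13 and 21.7 CPM, from 5, 25, 10 and 160 counts, a 21.8-fold range. The high libraries were all of HFS, CS replicate 2 and HFR replicate 4, and both of these single libraries lay above every HFS library. *Ccl19* averaged 16.2 ± 0.656 CPM over HFS (SD, n = 3), 10.4 ± 8.29 over CS (SD, n = 3) and 7.37 ± 9.70 over HFR (SD, n = 4).

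With such a spread, log2 fold changes of *Ccl19* had wide errors: 0.64 ± 0.97 (SE) in HFS over CS, −0.44 ± 0.92 (SE) in HFR over CS and −1.08 ± 0.90 (SE) in HFR over HFS. Their edgeR adjusted p values were 0.994, 0.995 and 0.989. The 95% interval of HFR over HFS, −3.14 to 0.98, held both a large decrease and an increase. The estimates moved with single libraries: HFR over HFS was −2.63 without HFR replicate 4 and −0.73 without HFR replicate 1, and HFR over CS was −1.99 without HFR replicate 4 and 0.44 without CS replicate 2. HFS over CS ran from 0.22 without CS replicate 1 to 1.51 without CS replicate 2, and was 1.48 without CS replicate 2 and HFS replicate 2. For the high-fat groups against CS, where edgeR called 0.0168% of genes, *Cxcl16* stood at 0.14 ± 0.35 (SE) and *Ccl19* at 0.10 ± 0.84 (SE).

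**Figure D1:**
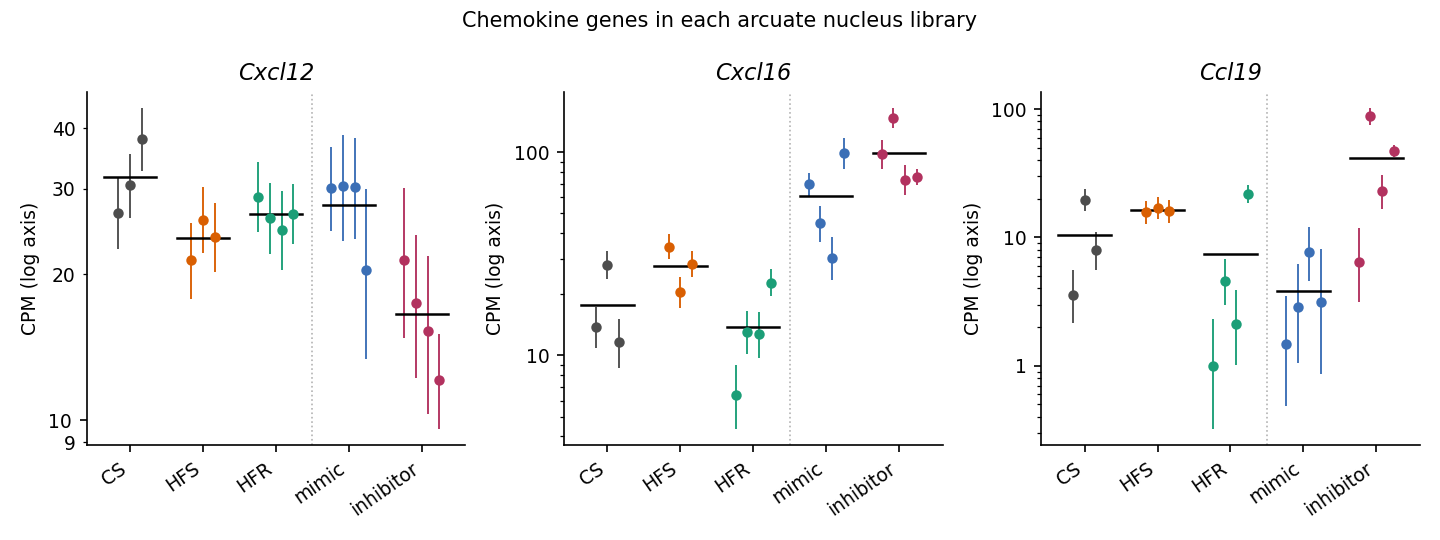
CPM of *Cxcl12*, *Cxcl16* and *Ccl19* on log axes in each of the 18 libraries, by group. Points are libraries with their 95% Poisson interval, which covers counting error only, black lines are group means, and the dotted line separates the 2 experiments. *Ccl19* ranged from 0.997 to 21.7 CPM within HFR, whereas *Cxcl12* stayed between 24.7 and 28.9 CPM there.

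The 3 genes differed in how much replicate libraries scattered. The biological coefficient of variation, the spread between libraries of a group beyond counting error, was 0.171 for *Cxcl12*, 0.351 for *Cxcl16* and 0.821 for *Ccl19* in the DIO experiment, against a median of 0.221 over 11892 genes. Only 0.505% of genes scattered more than *Ccl19*. In the miR-211 experiment the coefficients were 0.188, 0.363 and 0.719 in the same order, against a median of 0.176 over 9625 genes, and 0.862% of genes exceeded *Ccl19*. For *Cxcl12*, 73.3% of genes scattered more in the DIO experiment and 42.8% in the miR-211 experiment. *Ccl19* was thus among the most variable genes in both, and *Cxcl12* was on the less variable side in the DIO experiment.

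*Cxcl16* and *Ccl19* were high and low in the same DIO libraries. Over the 10 libraries Pearson's r of their log2 CPM was 0.89 and Spearman's rho 0.71, with permutation p values of 0.00158 and 0.0268. Adjusted over 6 such relations these were 0.00948 and 0.161, so the rank relation failed the correction. These pair tests were not planned, and they shuffled libraries across the groups. The relation was not particular to this pair: *Nbl1*, with an r of 0.93 to *Ccl19*, ranked only 45 among 11891 genes, ahead of *Cxcl16*. Pearson's r was 0.83 without HFR replicate 1 and HFS replicate 1, the 2 libraries farthest from the median of *Cxcl16*, and 0.83 over deviations from the group means. *Cxcl12* did not share this pattern, with r of −0.47 to *Cxcl16* and −0.12 to *Ccl19* and permutation p values adjusted for the 6 relations of 0.269 and 0.706.

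In the miR-211 experiment *Cxcl16* and *Ccl19* had an r of 0.43 over 8 libraries (adjusted permutation p = 0.347), and −0.08 within groups. *Cxcl12* and *Ccl19* ran in opposite directions there, with an r of −0.78 and a rho of −0.71, whose exact permutation p values adjusted for the 6 relations were 0.0862 and 0.172. The libraries of an arm sit together in this relation, and within groups r was −0.38.

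**Figure D2:**
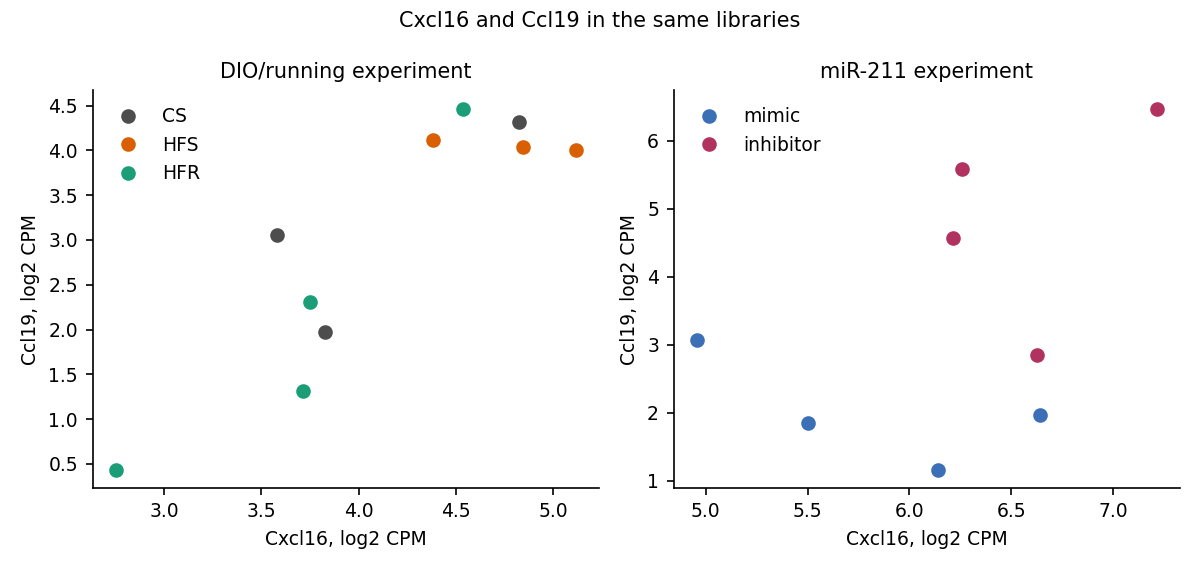
Log2 CPM of *Ccl19* against *Cxcl16* in the 10 DIO/running libraries (left) and the 8 miR-211 libraries (right), 1 point per library, coloured by group. On the left CS replicate 2 and HFR replicate 4 lie with the HFS libraries at the upper right, and r over all points is 0.89. On the right it is 0.43.

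Markers of other cell types were summed in the same DIO libraries, and their relation to the chemokines was not tested. The markers with an identifier are genes from the study's tables of calls on these samples, so counts within these lists are not independent evidence of a direction. For fibroblasts and meninges 4 of 8 markers had an identifier, and their summed level was 93.6, 269 and 92.3 CPM in CS, 253, 176 and 264 CPM in HFS, and 59.6, 115, 131 and 196 CPM in HFR. *Prelp*, which encodes a matrix proteoglycan, was the most abundant of them, and none was at 0 in all libraries. CS replicate 2 and HFR replicate 4 were again the high libraries of their groups, and HFR replicate 1 the low one. For microglia, with 6 of 11 markers, the summed level was 314, 519 and 297 CPM in CS, 622, 478 and 523 CPM in HFS, and 307, 319, 339 and 445 CPM in HFR, and complement gene *C1qb* was the most abundant. All 6 microglial markers had a lower point estimate in HFR than in HFS, with a median log2 fold change of −0.62 against −0.01 over 11892 genes, but none was called. The 4 fibroblast and 2 astrocyte markers were also all lower there (medians −0.87 and −0.60). So were the 3 endothelial, 2 oligodendrocyte and 2 blood myeloid markers that passed the filter, so lower values were not particular to 1 cell type. *Sim1*, *Trh* and *Cck* were all higher, and of the arcuate neuron markers 3 were higher and 3 lower. In HFS over CS all 6 microglial markers had a higher point estimate (median 0.70), again with none called. Astrocyte markers, 2 of 6 and mostly *Gfap*, summed to 596, 1514 and 547 CPM in CS, 2784, 1186 and 2095 CPM in HFS, and 464, 1229, 1659 and 1834 CPM in HFR. In tissue punches fewer cells of a type and less RNA per cell cannot be told apart.

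The remaining lists did not all follow the order of *Cxcl16* and *Ccl19*. For blood myeloid cells 7 of 10 markers had an identifier and summed to 64.7, 122 and 104 CPM in CS, 129, 105 and 159 CPM in HFS, and 50.0, 58.8, 83.1 and 135 CPM in HFR. Nearly all of this was *Lyz2*, a lysozyme that microglia make too, and neutrophil gene *S100a8* did not exceed 0.960 CPM in a DIO library. Endothelial markers, 3 of 7, summed to 285, 316 and 330 CPM in CS, 352, 287 and 307 CPM in HFS, and 266, 288, 353 and 258 CPM in HFR, with the lowest sum in HFR replicate 4. Oligodendrocyte markers, 2 of 5 and led by *Mbp*, summed to 8303, 13080 and 10152 CPM in CS, 19720, 17612 and 12910 CPM in HFS, and 15399, 10973, 13107 and 15326 CPM in HFR, where HFR replicate 1, the lowest of its group for both chemokines, was the highest. *Sim1*, *Trh* and *Cck*, which mark neighbouring hypothalamic nuclei, summed to 198, 156 and 195 CPM in CS, 115, 157 and 138 CPM in HFS, and 182, 164, 155 and 144 CPM in HFR, with the lowest values in HFS. In the 3 pairwise comparisons and in the high-fat groups against CS, no gene of these lists was called.

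The ratio of 2 genes in the same library sets the inflammation-linked chemokines against *Cxcl12* without library size. On the log2 scale *Cxcl16* to *Cxcl12* was −0.93, −0.12 and −1.68 in CS, 0.67, −0.33 and 0.25 in HFS, and −2.12, −0.98, −0.93 and −0.22 in HFR. HFS lay highest, overlapping CS through CS replicate 2 and HFR through HFR replicate 4. The mean ratio was 2.15-fold higher in HFS than in CS and 2.39-fold higher in HFS than in HFR, with exact two-sided permutation p values of 0.20 and 0.114. HFR and CS differed by −0.15 on the log2 scale (exact permutation p = 0.743). A difference in ratio was not detected, and 3 libraries against 3 or 4 could not have given a p under 0.10 or 0.0571.

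*Ccl19* to *Cxcl12*, a ratio added after the values had been seen, was −2.79, −0.63 and −2.21 in CS, −0.44, −0.60 and −0.56 in HFS, and −4.44, −2.42, −3.33 and −0.29 in HFR. All HFS libraries lay above all CS libraries, by 1.34 in the mean, with an exact two-sided permutation p of 0.10. Without CS replicate 2 and HFS replicate 2 the HFS and CS means differed by 2.00 in this ratio and by 1.77 in that of *Cxcl16* to *Cxcl12* (exact permutation p = 0.333 for both, with 2 libraries on each side). With single libraries left out, these differences fell as low as 0.88 for *Ccl19* to *Cxcl12*, without CS replicate 1. For *Cxcl16* to *Cxcl12* the lowest was 0.72, without CS replicate 3. In *Ccl19* to *Cxcl12* HFR lay 2.08 below HFS in the mean, and the exact permutation p was 0.229 because HFR replicate 4 exceeded every HFS library. Over all 10 ratio comparisons in both experiments, the smallest adjusted p was 0.286.

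**Figure D3:**
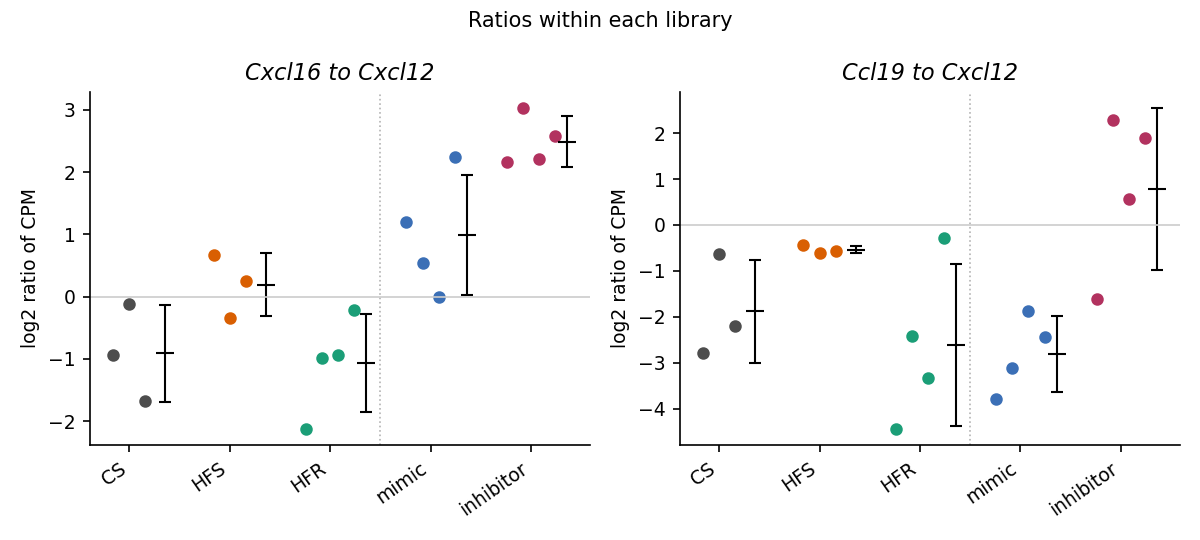
Log2 ratio of *Cxcl16* to *Cxcl12* (left) and of *Ccl19* to *Cxcl12* (right) in each library, by group, with the group mean and SD beside the points. The mean of *Ccl19* to *Cxcl12* differs by −3.59 between mimic and inhibitor without overlap, and HFS has the highest mean of the DIO groups.

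Between mimic and inhibitor none of the 3 genes passed the threshold of edgeR. *Cxcl12* was at 30.1, 30.4, 30.3 and 20.4 CPM with the mimic and at 21.4, 17.4, 15.3 and 12.1 CPM with the inhibitor, from 26 to 101 counts per library. Mimic replicates 1 to 3 lay above all inhibitor libraries, and mimic replicate 4, the shallowest library, lay within 1 CPM of inhibitor replicate 1. Means were 27.8 ± 4.91 CPM (SD, n = 4) and 16.6 ± 3.91 CPM (SD, n = 4).

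*Cxcl16* was at 69.7, 44.6, 30.3 and 99.0 CPM with the mimic and at 98.0, 148, 73.4 and 75.7 CPM with the inhibitor. Mimic replicate 4 exceeded 3 of the 4 inhibitor libraries, whereas the other 3 mimic libraries lay below all of them. Means were 60.9 ± 30.2 CPM (SD, n = 4) and 98.7 ± 34.4 CPM (SD, n = 4), and the arms overlapped.

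*Ccl19* was at 1.49, 2.85, 7.68 and 3.14 CPM with the mimic, from 5, 6, 18 and 4 counts. With the inhibitor it was at 6.49, 88.1, 22.9 and 47.3 CPM, from 10, 182, 45 and 317 counts. Mimic libraries spanned a 5.15-fold range at low counts, while inhibitor libraries spanned a 13.6-fold range whose lowest member, replicate 1, lay under mimic replicate 3. Means were 3.79 ± 2.69 CPM (SD, n = 4) and 41.2 ± 35.5 CPM (SD, n = 4).

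The log2 fold change in mimic over inhibitor was 0.81 ± 0.22 (SE) for *Cxcl12*, −0.71 ± 0.37 (SE) for *Cxcl16* and −3.48 ± 0.85 (SE) for *Ccl19*. *Ccl19* was thus 11.2-fold higher with the inhibitor and *Cxcl12* 1.75-fold higher with the mimic. The edgeR adjusted p values over 9625 genes were 0.174, 0.600 and 0.191, so none of the 3 was called, where edgeR called 0.447% of genes at an adjusted p under 0.05. DESeq2, which called 1.55% of 12526 genes, gave adjusted p values of 0.0990, 0.531 and 0.00724 and called *Ccl19* alone of the 3. Over the alternatives to edgeR's main settings other than left-out libraries, the adjusted p of *Ccl19* ranged from 0.00724 to 0.335. None of the 3 separated the arms completely, which 5.92% of genes did, and exact two-sided permutation tests of the single genes gave p = 0.0571 for *Cxcl12*, 0.143 for *Cxcl16* and 0.0571 for *Ccl19*, where 0.0286 is the smallest that 4 against 4 allows. Without inhibitor replicate 1 the edgeR adjusted p of *Ccl19* was 0.0327, and 111 genes in place of 43 were called. Without each of the other 7 libraries it was 0.209 to 0.416 (edgeR adjusted p). The log2 fold change of *Cxcl16* ranged from −1.01 without mimic replicate 4 to −0.45 without inhibitor replicate 2.

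**Figure D4:**
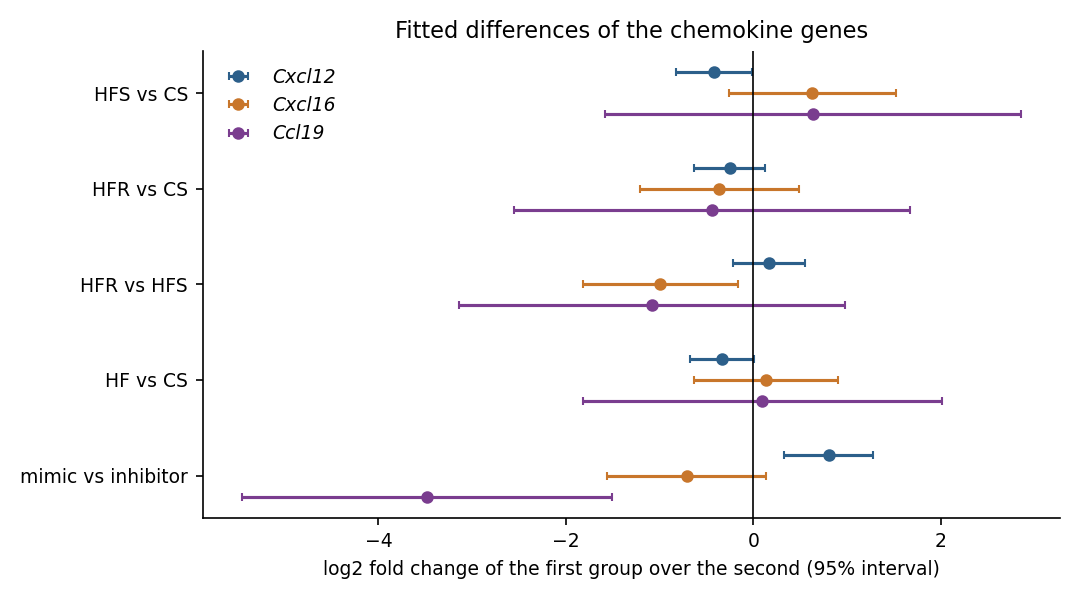
Fitted log2 fold change of each chemokine gene in the 5 comparisons, with its 95% interval from edgeR; HF is the mean of HFS and HFR. In mimic vs inhibitor the interval is 0.33 to 1.28 for *Cxcl12*, −1.56 to 0.14 for *Cxcl16* and −5.46 to −1.51 for *Ccl19*, and no point passed the adjusted threshold.

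The ratios within a library set the same genes against each other. *Cxcl16* to *Cxcl12* was at a log2 ratio of 1.19, 0.54, 0 and 2.24 with the mimic and of 2.16, 3.03, 2.21 and 2.57 with the inhibitor. Mimic replicate 4 fell among the inhibitor libraries, and the mean ratio was 2.83-fold higher with the inhibitor (exact two-sided permutation p = 0.0857). *Ccl19* to *Cxcl12* was at −3.78, −3.11, −1.88 and −2.44 with the mimic and at −1.61, 2.29, 0.56 and 1.90 with the inhibitor. All 4 mimic libraries lay below all 4 inhibitor libraries, and the mean log2 ratio differed by −3.59. The exact two-sided permutation p was 0.0286, the smallest possible, and 0.286 when adjusted over the 10 ratio comparisons.

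Other chemokine ligands were set beside the 3 genes from a list of 36. Only 10 had an identifier paired with a symbol, and the pairs came from the study's tables of genes it had called on these same samples, so counts within this list are not independent evidence of a direction. In the DIO libraries the acute inflammatory ligands were near absent: *Ccl2*, which attracts monocytes, had 0 to 2 counts, *Ccl3* 0 to 12, and the neutrophil attractants *Cxcl1*, *Cxcl2* and *Cxcl3* at most 1, 2 and 8. *Ccl20*, the ligand of Ccr6, had a count of 0 in all 10, which allows up to 0.400 to 0.641 CPM depending on the depth of the library. *Ccl5*, a T-cell attractant, was at 0.936, 5.17 and 2.36 CPM in CS, 5.69, 2.08 and 5.92 CPM in HFS, and 0.399, 3.87, 3.41 and 2.17 CPM in HFR, with overlapping groups. It was the only listed ligand besides the 3 that passed the filter on low counts, and its log2 fold change of 0.68 ± 0.68 (SE) in HFS over CS equalled its error. The 4 ligands that passed had a median log2 fold change of 0.63 in HFS over CS, −0.31 in HFR over CS and −0.94 in HFR over HFS, against 0.00, −0.01 and −0.01 over all 11892 genes, and 0 were called by edgeR or DESeq2 in any of these comparisons.

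In the miR-211 libraries all 10 ligands were detected. *Ccl2* was at 76.9, 35.1, 18.3 and 62.9 CPM with the mimic and at 313, 762, 167 and 143 CPM with the inhibitor. *Cxcl1* was at 12.2, 32.3, 24.7 and 13.4 CPM against 94.7, 235, 109 and 179 CPM. Every inhibitor library exceeded every mimic library for both genes. Among the 9 ligands that passed the filter, the same held for *Ccl3*, *Cxcl2* and *Cxcl3*, against 5.92% of all genes. *Cxcl2* and *Cxcl3* went down to 4 and 5 counts with the mimic, and *Ccl19* had 4 to 18 there. A gene can pass the filter through its high arm alone, so separation of such genes is not independent evidence of a direction. Of the 9 ligands that passed, 8 had a lower point estimate with the mimic, and *Cxcl12* alone had a higher one. *Cxcl1* was the only ligand that edgeR called, and it fell by 2.90 ± 0.41 (SE) on the log2 scale with the mimic (edgeR adjusted p = 0.0361). DESeq2 called 7 ligands lower, *Ccl2*, *Ccl3*, *Ccl19*, *Ccl20*, *Cxcl1*, *Cxcl2* and *Cxcl3*. Over all genes edgeR called 0.447% and DESeq2 1.55%. The median log2 fold change over the 9 was −2.83, and over the 6 besides the 3 chemokines followed here −2.87, against 0.01 over 9625 genes. Inhibitor replicate 2 was the highest library for 7 of the 10 ligands, and without it the median was −2.53 and *Cxcl1* was still called. The call of *Cxcl1* was lost without any single mimic library, where its edgeR adjusted p was 0.0888 to 0.136, without inhibitor replicate 4 (edgeR adjusted p = 0.103) and with no filter on low counts (edgeR adjusted p = 0.0697).

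**Figure D5:**
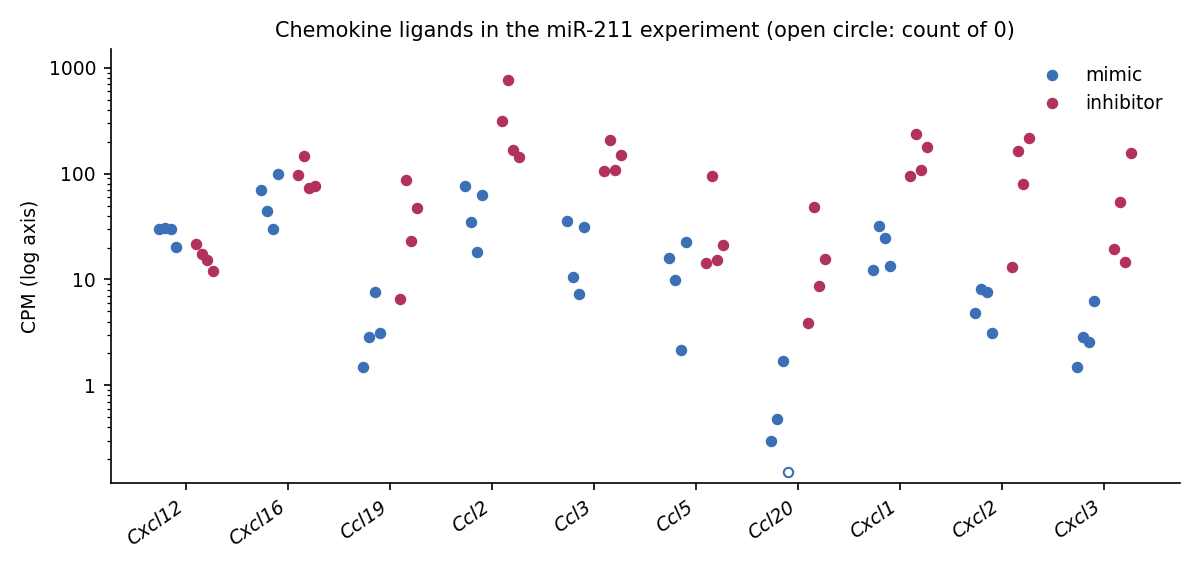
CPM on a log axis of the 10 chemokine ligands with an identifier in the 4 mimic and 4 inhibitor libraries, 1 point per library. The open circle marks a count of 0, drawn at the foot of the axis. *Ccl2*, *Ccl3*, *Cxcl1*, *Cxcl2* and *Cxcl3* separate the arms, *Cxcl16* overlaps, and *Cxcl12* is the 1 ligand with the higher mean in mimic.

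Of 23 chemokine receptors only *Ccrl2* had an identifier, an atypical receptor that binds chemerin and presents it to other cells, so Cxcr4, Cxcr6 and Ccr7, the receptors of the 3 ligands, are not reported here. *Ccrl2* was at 0.894, 1.42, 0.853 and 0.786 CPM with the mimic, from 1 to 3 counts, and at 6.49, 19.8, 6.11 and 8.51 CPM with the inhibitor. The mimic levels were near the detection floor of 3 counts, 0.904 to 2.35 CPM in these libraries, so the size of the difference is uncertain, and the symbol is known only because the study had called the gene on these samples. The gene passed the filter on low counts only through the inhibitor libraries, so its separation and its call are not independent evidence of a difference. No mimic library reached the inhibitor libraries, and the fitted log2 fold change in mimic over inhibitor was −3.30 ± 0.53 (SE, edgeR adjusted p = 0.0351). That call was lost without any single mimic library and without inhibitor replicate 4 (edgeR adjusted p = 0.103). In the DIO libraries it had 3 to 13 counts and did not pass the filter.

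Among 9 genes that shed, cleave, bind or otherwise handle chemokines, 4 had an identifier. *Tnfaip6*, a secreted hyaluronan-binding protein that also binds chemokines, was at 4.17, 9.50, 5.97 and 6.29 CPM with the mimic and at 21.4, 22.3, 12.7 and 23.7 CPM with the inhibitor. Its arms did not overlap, and it was lower with the mimic than with the inhibitor by 1.66 ± 0.30 (SE) on the log2 scale (edgeR adjusted p = 0.0380). The call was lost without any single mimic library, without inhibitor replicate 2 (edgeR adjusted p = 0.0732) and without inhibitor replicate 4 (edgeR adjusted p = 0.137). *Sdc4*, a heparan sulfate proteoglycan, was at 308 ± 66.2 CPM (SD, n = 4) with the mimic and, without overlap, at 399 to 737 CPM with the inhibitor, and edgeR did not call it (adjusted p = 0.174), while DESeq2 did (adjusted p = 0.0123). DESeq2 called 2 of the handling genes lower and edgeR 1, against 1.55% and 0.447% of all genes, and these symbols too come from the genes the study had called. The protease inhibitor gene *Timp1* was at 37.1 to 268 CPM with the mimic and 250 to 989 CPM with the inhibitor (edgeR adjusted p = 0.364). The protease gene *Mmp2* did not pass the filter there. In the DIO experiment all 4 passed and none was called. *Mmp2* and *Timp1* were higher in all HFS libraries than in all CS libraries, *Mmp2* at 12.5 to 15.2 CPM in HFS against 6.17 to 10.9 CPM in CS, where 9.72% of all genes did not overlap. Both also lay lower in all HFR libraries than in all HFS libraries, *Mmp2* at 4.26 to 10.5 CPM and *Timp1* at 6.38 to 24.9 CPM in HFR against 28.8 to 37.9 CPM in HFS, where 6.84% of all genes did not overlap.

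Of 18 cytokine and NF-κB pathway genes 17 had an identifier, again only through the study's tables of genes called on these samples, so their counts are not independent evidence of a direction. Of the 12 that passed the filter, 12 had a lower point estimate with the mimic and 9 did not overlap, against 5.92% of all genes, with a median log2 fold change of −1.78 against 0.01. EdgeR called 4 of them lower, *Tnfrsf1a*, *Nfkbiz*, *Bcl3* and *Icam1*, and DESeq2 called 14 of the list lower, where the shares over all genes were 0.447% and 1.55%. Without mimic replicate 1 or mimic replicate 3 edgeR called 0 genes in this comparison. In the DIO experiment 9 passed and none was called, with medians of 0.11 in HFS over CS and −0.49 in HFR over HFS.

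Cell type markers were summed in both arms, and whether they bear on the chemokine values was not tested. Blood myeloid markers summed to 161, 175, 168 and 216 CPM with the mimic and to 245, 1295, 519 and 925 CPM with the inhibitor, without overlap. *Lyz2* was the most abundant at 129 to 185 CPM with the mimic and 205 to 1049 CPM with the inhibitor, and *S100a8* stood at 1.57 to 6.85 CPM against 4.54 to 68.2 CPM. The order of the inhibitor libraries, replicate 2, then 4, then 3, then 1, was that of *Ccl19*. It was not particular to the myeloid markers, since the summed microglial markers and the summed cytokine and NF-κB genes had the same order. Of the 5 myeloid markers that passed the filter none was called by edgeR. DESeq2 called all 7 with an identifier lower, against 1.55% of all genes, but these 7 have a symbol here because the study had called them on these samples, so this count is not independent evidence. Microglial markers summed to 333, 540, 530 and 597 CPM with the mimic and 481, 1021, 603 and 747 CPM with the inhibitor, with a median log2 fold change of −0.54, no call by edgeR and 2 called lower by DESeq2. Astrocyte markers summed to 1183 to 2948 CPM and 1949 to 2750 CPM, fibroblast markers to 33.3 to 68.4 CPM and 45.4 to 104 CPM, and oligodendrocyte markers to 5957 to 11233 CPM and 7295 to 10602 CPM, in the order mimic, inhibitor. The neighbouring-nucleus markers summed to 158 to 267 CPM and 171 to 179 CPM. These 4 lists overlapped between the arms and held no call. Endothelial markers summed to 206 to 257 CPM with the mimic and 241 to 336 CPM with the inhibitor, and DESeq2 called 1 of them lower. Among them *Slco1c1*, a thyroid hormone transporter of brain endothelium, was higher with the mimic than with the inhibitor by 1.16 ± 0.15 (SE) on the log2 scale (edgeR adjusted p = 0.0286). It was the only gene of 9625 that edgeR called higher, whereas DESeq2 called 13 genes higher.

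Apart from *Nbl1*, the genes whose levels ran most closely with each chemokine differed between the 3. *Nbl1* was among those of both *Cxcl16* and *Ccl19* in the DIO experiment. Likeness was Pearson's r of log2 CPM over the libraries of an experiment among the genes with a symbol, given as a description, since the highest of 568 or 515 values were chosen and the libraries share depth and tissue composition. For *Cxcl12* in the DIO experiment these included *Rabgef1* (r = 0.85) and *Rspry1* (r = 0.84). In the miR-211 experiment they were *Rai1* (r = 0.90), *Dnajb6* (r = 0.88) and the Hedgehog receptor gene *Ptch1* (r = 0.87). No gene was shared between those lists.

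*Cxcl16* ran with *Flna*, which encodes an actin crosslinker (r = 0.97), the complement inhibitor gene *Serping1* (r = 0.96) and *Nbl1*, a BMP antagonist (r = 0.96), in the DIO experiment, and with *Timp1* (r = 0.94), *Vamp5* (r = 0.93) and podoplanin, *Pdpn* (r = 0.93), in the miR-211 experiment. *Timp1*, *Vamp5* and *Pdpn* had r of 0.95, 0.85 and 0.92 to *Cxcl16* in the DIO libraries, but *Flna*, *Serping1* and *Nbl1* had 0.49, 0.86 and −0.20 in the miR-211 libraries. For the *Cxcl12* companions *Rai1*, *Dnajb6* and *Ptch1*, r to *Cxcl12* in the DIO libraries was 0.56, 0.71 and −0.26, and for *Rabgef1* and *Rspry1* it was 0.13 and −0.37 in the miR-211 libraries. *Ccl19* ran with the collagen-processing protease gene *Adamts2* (r = 0.96), *Fbln1* (r = 0.95) and *Nbl1* (r = 0.93) over the DIO libraries. Over the miR-211 libraries it ran with *Tyrobp*, the signalling adaptor of microglia and other myeloid cells (r = 0.99), *Serpinb1a* (r = 0.98) and *G0s2* (r = 0.98). *Fbln1*, a matrix gene of fibroblasts, was at 38.0, 117 and 46.8 CPM in CS, 90.7, 87.5 and 111 CPM in HFS, and 23.3, 49.6, 41.8 and 89.6 CPM in HFR. *Tyrobp* was at 54.8, 64.6, 71.2 and 66.0 CPM with the mimic and at 69.4, 158, 108 and 140 CPM with the inhibitor. In the other experiment, r to *Ccl19* was 0.77 for *Fbln1* and 0.14 for *Nbl1* over the miR-211 libraries, and 0.66 for *Tyrobp*, 0.88 for *Serpinb1a* and 0.62 for *G0s2* over the DIO libraries. *Adamts2* did not pass the filter in the miR-211 experiment.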

How the data were processed

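The authors deposited raw counts per Ensembl gene, 1 file per library, made from bulk MARS-seq (3′ end) reads aligned with STAR 2.7.9a to Rnor6, cleared of duplicates with SAMtools and counted with HTSeq 0.13.5; the annotation release was not stated. The miR-211 counts were corrected by molecular barcode, and whether the DIO counts were was not stated. Reads that named no gene, 41.6 to 48.7% in the 10 DIO libraries and not listed for the others, were left out.

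EdgeR 4.0.16 in R 4.3.3 (quasi-likelihood, robust, TMM, filterByExpr) was fitted per experiment, with Benjamini-Hochberg adjusted p under 0.1 (DIO) or 0.05 (miR-211) over all genes tested. The edgeR fits were tested on simulated data with known changes. Log2 CPM used a prior count of 2. Ratios and single genes were tested by exact permutation in R, and pairs by permutation in Python 3.11.15 with numpy 2.4.6 and scipy 1.17.1. Alternatives were DESeq2 1.42.0, RLE factors, other filters on low counts, a block on replicate number, left-out libraries and, for ratios, a prior count of 0.5.

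Named genes were the 3 chemokines, the listed chemokine ligands, receptors and handling genes with an identifier, and for each chemokine the 3 genes with the highest Pearson's r, of which 1 is not reported here; genes named beyond these were chosen after their values were seen. The chemokines and the lists were chosen with earlier results of these data known. Symbols for 607 identifiers came from the study's tables of called genes, so a listed gene outside those tables is missing here. None of 4 choroid plexus markers had an identifier.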

Additional observations from a re-analysis of the deposited data

Results flagged for a closer look

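In 5 of 39 groups of values of listed chemokine genes or their ratios, a single library stood farther from the others of its group than a gap test allows. About 1 in 20 would by chance if values were normally distributed. Counts near 0 are not, and groups with only 0 counts could not be flagged, so no excess over chance is read from this share. *Cxcl12* in mimic replicate 4 was at 20.4 CPM, with the nearest library at 30.1 CPM. *Ccl5* in inhibitor replicate 2 was at 95.8 CPM, with the nearest at 21.1 CPM. *Ccrl2* in mimic replicate 2 was at 1.42 CPM, with the nearest at 0.894 CPM, and both came from 3 counts in libraries of different depth. *Ccl2* in HFR replicate 1 (0.199 CPM) and *Cxcl1* in HFR replicate 4 (0.136 CPM) each came from 1 count, with 0 in the other libraries of the group.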

How the results depend on the processing

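Of the values under alternatives, 20 reversed, 30 were weaker, 2 stronger and 48 were counts of calls more than 1.5 times from the main count. The other 378 kept their direction and side of the threshold or, for counts, lay within 1.5 times. The cause was not tested. With DESeq2 the called genes were 2 in HFS vs CS, 16 in HFR vs CS, 25 in the high-fat groups vs CS and 194 in mimic vs inhibitor, with 7 chemokine ligands, and *Ccl19* in the last was past the threshold at −3.43. With no filter on low counts they were 8 in HFR vs CS, 24 in the high-fat groups vs CS and 125 in mimic vs inhibitor, with 0 ligands. HFS vs CS had 0 with a stricter filter and 0 with only the 2 groups compared.

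Without CS replicate 2 and HFS replicate 2 the high-fat groups vs CS had 0 called genes, and HFR vs CS turned to 0.14 for *Cxcl16*, 0.43 for *Ccl19* and 0.24 for the ratio of *Cxcl16* to *Cxcl12*. *Cxcl12* in the high-fat groups vs CS was then −0.34 (exact permutation p = 0.143).

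With a replicate block the called genes were 0 in HFS vs CS, 0 in HFR vs CS, 2 in HFR vs HFS, 4 in the high-fat groups vs CS, and 2 ligands were called in mimic vs inhibitor. *Ccl19* was then −2.88 in HFR vs HFS (edgeR adjusted p = 0.107), −1.93 in HFR vs CS (edgeR adjusted p = 0.515) and −0.49 in the high-fat groups vs CS, in a fit where HFR replicate 4 shares its number with no other DIO library, and *Tnfaip6* lost its call (edgeR adjusted p = 0.0552). Same-numbered libraries did not deviate together throughout (r −0.124 to 0.151 over 9 DIO pairs, 0.0495 to 0.214 over 4 miR-211 pairs), and 3 of 10 and 5 of 8 libraries correlated best with their own number.

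With each library left out in turn the called genes ranged from 0 to 2 in HFS vs CS, 0 to 3 in HFR vs CS, 0 to 7 in the high-fat groups vs CS and 0 to 111 in mimic vs inhibitor, and the called ligands from 0 to 4. HFR vs CS ranged from −0.73 to 0.14 for *Cxcl16*, −1.99 to 0.44 for *Ccl19* and −0.54 to 0.24 for the ratio of *Cxcl16* to *Cxcl12*. The high-fat groups vs CS ranged from −0.0909 to 0.63 for *Cxcl16* (0.72 without CS replicate 2 and HFS replicate 2), −0.67 to 0.97 for *Ccl19*, −0.31 to 0.78 for the ratio of *Ccl19* to *Cxcl12*, and −0.42 to −0.17 for *Cxcl12* by permutation. In mimic vs inhibitor *Ccl19* ranged from −4.18 to −2.87 and its ratio to *Cxcl12* from −4.39 to −3.09, where p was 0.0571, the smallest that 3 against 4 allows. The alternatives for *Cxcl1*, *Ccrl2*, *Tnfaip6*, the ligand count, the DIO ratios of *Ccl19* and the permutation test of *Cxcl12* were chosen after seeing the data. *Ccrl2* and *Tnfaip6* lost their calls without any single mimic library or inhibitor replicate 4, and *Tnfaip6* also without inhibitor replicate 2. *Ccl19* had 4 to 18 counts and *Ccrl2* 1 to 3 in the mimic libraries, so counting error is large there.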
